A study of Mus musculus with 16 samples.

Results

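The nuclear oxidative phosphorylation genes were taken as the protein-coding genes whose symbols begin with Nduf, Uqcr, Cox4 to Cox8 or Atp5, together with *Sdha*, *Sdhb*, *Sdhc* and *Sdhd*, and without symbols that mark a pseudogene. The rule itself uses only symbols and gene type. It gave 93 of the 49585 genes listed in each of the 2 count tables. By complex, 36 belonged to complex I, 8 were complex I assembly factors (*Ndufaf1* to *Ndufaf8*), 4 belonged to complex II, 8 to complex III, 20 to complex IV and 16 to complex V. *Ndufa4* and its paralog *Ndufa4l2* were placed with complex IV, and *Atp5s*, which encodes coupling factor B, was kept apart. The genes lie on 19 chromosomes, with 2 to 9 on each.

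Oxidative phosphorylation makes ATP at the inner mitochondrial membrane. Complexes I and II pass electrons from NADH and succinate to coenzyme Q, complex III passes them on to cytochrome c, complex IV hands them to oxygen, and complex V, the ATP synthase, uses the proton gradient that the chain builds up. Most subunits are encoded in the nucleus and a small core in mitochondrial DNA, and in skeletal muscle and heart the complex IV isoforms *Cox6a2*, *Cox7a1* and *Cox8b* are used where most other tissues use *Cox6a1*, *Cox7a2* and *Cox8a*.

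Total RNA was sequenced from 16 libraries of C2C12, a mouse myoblast line that leaves the cell cycle and fuses into myotubes when confluent cells are moved to low serum. The first 8 libraries were wild-type (WT) and AMPK-KO cells, labelled in both genotypes as myoblasts at day 0 (d0) and as myotubes at day 8 of differentiation (d8), with 2 libraries per group. AMPK is the energy-sensing AMP-activated protein kinase, and the AMPK-KO cells carry CRISPR/Cas9 knockouts of *Prkaa1* and *Prkaa2*, which encode its alternative catalytic subunits. The other 8 libraries were d0 myoblasts that all lack AMPK and in which a FLAG-BirA tag, delivered on a donor with a GFP cassette, had been knocked into both alleles of endogenous *Tet2*, the gene of a 5-methylcytosine dioxygenase. Its coding sequence was either unchanged (TET2-WT) or carried the S97E change, a glutamate in place of the serine that AMPK phosphorylates. Each TET2 genotype had 2 clones with 2 libraries each. Libraries of a clone are not independent, so p-values over these 8 libraries are too small, and on counts summed per clone 0 of 15126 genes were called. The study describes independent AMPK-KO lines, but the labels name neither the line behind an AMPK-KO library nor separate cultures behind replicates. The p-values therefore measure the spread between these libraries, which may be that between lines or cultures or may be technical.

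Libraries held 17883417 to 24663079 counts in the AMPK table and 19801909 to 37790358 in the TET2 table. Levels are counts-per-million values after TMM scaling (CPM), and levels of different genes were compared per kilobase of exon. Exon length is that of the merged exons of all annotated transcripts of a gene, so an order per kilobase depends on the annotation. The edited genes were looked at first. *Prkaa1* stood at 159 CPM in both WT d0 libraries and at 79.7 and 78.0 CPM in the AMPK-KO d0 libraries. *Prkaa2* stood at 6.22 and 10.1 CPM in WT d8 and at 1.26 and 0.826 CPM in AMPK-KO d8. The log2 fold change of *Prkaa1* at d0 was -1.01 (edgeR adjusted p = 0.0116) and that of *Prkaa2* at d8 was -2.96 (edgeR adjusted p = 0.019), with transcripts of both still counted in the knockout. Of the 3 edited genes, *Prkaa1* alone was called lower at d0, and 2 were called lower at d8. *Tet2* ranged from 22.5 to 58.4 CPM in TET2-WT and from 7.88 to 22.1 CPM in TET2-S97E, which did not overlap but was not called.

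The labelled cell states were compared with 8 genes of differentiated myotubes (*Myog*, *Myh3*, *Myh1*, *Acta1*, *Ckm*, *Tnnt3*, *Mylpf* and *Atp2a1*). Their summed level was 176 and 127 CPM in WT d0, 23.7 and 15.5 CPM in AMPK-KO d0, 6391 and 9844 CPM in WT d8, and 2158 and 11950 CPM in AMPK-KO d8. In the TET2-WT libraries, labelled d0 myoblasts, it was 16.5 and 20.1 CPM in clone 1 and 44.4 and 313 CPM in clone 2. In the TET2-S97E libraries, also labelled d0 myoblasts, it was 6264 and 2187 CPM in clone 1 and 2136 and 419 CPM in clone 2. The TET2-S97E libraries thus all lay above the TET2-WT libraries, and the highest of them came close to the lower WT d8 library, although no differentiation is labelled for them. The summed level of 4 cell cycle genes (*Mki67*, *Top2a*, *Ccnb1* and *Cdk1*) was 731 and 1439 CPM in WT d0, 1171 and 1155 CPM in AMPK-KO d0, 105 and 99.99 CPM in WT d8, and 249.9 and 107 CPM in AMPK-KO d8. In the TET2 libraries, labelled d0, it was 213 and 187 CPM in TET2-WT clone 1, 93.9 and 101 CPM in TET2-WT clone 2, 297 and 171 CPM in TET2-S97E clone 1, and 421 and 353 CPM in TET2-S97E clone 2. All 8 thus lay below every d0 library of the AMPK table, though the tables were normalized separately, and those of TET2-WT clone 2 were near the WT d8 level. Every difference between the TET2 genotypes given below comes from libraries that differ in this way, and fewer cells of a type and less RNA per cell cannot be told apart in bulk RNA. Genes of adipocytes, osteoblasts, endothelial cells and macrophages summed to at most 1.43 CPM per list in any library.

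The promoters of the muscle isoforms *Cox8b* and *Cox7a1*, 2 of the 4 genes that vary most below, are shown first, with those of the ubiquitous *Cox8a* and *Cox6a1* for comparison. Each is the 250 bases before the annotated start (RefSeq, GRCm38.p6), written 5′ to 3′ on the strand of the gene. *Cox8b* is read from the minus strand (chr7:140900447-140900696), *Cox7a1* from the plus strand (chr7:30183921-30184170), *Cox8a* from the minus strand (chr19:7217617-7217866) and *Cox6a1* from the minus strand (chr5:115348959-115349208). Capitals mark the E-box CANNTG, the letters that myogenic basic helix-loop-helix factors bind, in the first 3 sequences. In *Cox6a1* they mark 2 matches to the NRF1 motif (GCGC and TGCGC parted by any base, or the reverse complement of these letters) and a match to the ETS letters CCGGAAG on the other strand.
Cox8b: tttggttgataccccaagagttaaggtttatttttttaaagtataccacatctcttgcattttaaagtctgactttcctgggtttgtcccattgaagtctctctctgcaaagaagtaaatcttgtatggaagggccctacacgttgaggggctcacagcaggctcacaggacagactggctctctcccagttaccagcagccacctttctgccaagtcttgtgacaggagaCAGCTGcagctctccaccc
Cox7a1: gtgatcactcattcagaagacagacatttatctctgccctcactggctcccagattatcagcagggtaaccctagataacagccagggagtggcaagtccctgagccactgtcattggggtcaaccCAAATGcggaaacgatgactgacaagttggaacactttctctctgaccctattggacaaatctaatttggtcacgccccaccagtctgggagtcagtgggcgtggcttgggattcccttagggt
Cox8a: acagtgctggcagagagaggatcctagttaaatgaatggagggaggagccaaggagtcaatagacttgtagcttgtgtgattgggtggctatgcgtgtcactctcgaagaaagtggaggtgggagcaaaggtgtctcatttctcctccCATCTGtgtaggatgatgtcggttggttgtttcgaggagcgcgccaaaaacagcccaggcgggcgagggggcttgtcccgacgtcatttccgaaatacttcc
Cox6a1: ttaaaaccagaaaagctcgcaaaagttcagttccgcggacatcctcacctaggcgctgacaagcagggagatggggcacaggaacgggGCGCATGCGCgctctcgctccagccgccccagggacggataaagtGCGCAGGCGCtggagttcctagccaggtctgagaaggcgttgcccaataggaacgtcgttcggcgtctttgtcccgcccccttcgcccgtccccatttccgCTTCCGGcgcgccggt
The E-box of *Cox8b* reads CAGCTG and begins 19 bases before the start, and the single E-box of *Cox7a1* and of *Cox8a* begin 124 and 102 bases before it. A window was found for 76 of the 93 genes, 81 windows in all, and none for *Cox6a2* or *Ndufa4l2*. Searched on both strands, the NRF1 letters were in 15 of these 81 windows (18.5%) and in 3.74% of all 32851 promoter windows. The ETS letters were in 14 (17.3%) against 6.91%. The E-box was in 52 (64.2%) against 66.2%, its CAGCTG form, a subset of the E-box, in 6 (7.41%) against 13%, and the TATA letters TATAAA in 7 (8.64%) against 12.4%. The *Cox8b* window is among the few with CAGCTG, and the *Cox6a1* window has both the NRF1 and the ETS letters. These matches describe letters in a window and were not tested as binding sites.

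At the level of whole complexes the genes were abundant and varied little. Together they took 0.757% to 1.14% of the counts of a library, and the median of their mean levels was 43.3 CPM per kb in the AMPK table, against 5.64 CPM per kb for the 14304 tested genes with an exon length. *Atp5b*, the catalytic beta subunit of the ATP synthase, had the highest mean level per kilobase in both tables, 379 CPM per kb (257 to 480) in the AMPK table and 386 CPM per kb (267 to 500) in the TET2 table. In the TET2 table this range overlapped that of *Cox8a* (mean of 344 CPM per kb), which was the higher of the pair in the second libraries of TET2-WT clone 1 and TET2-S97E clone 1. *Atp5b* was followed in the AMPK table by *Cox8a* (207 CPM per kb), *Cox6a1* (198), the ATP synthase alpha subunit *Atp5a1* (197), *Cox6b1* (160) and *Cox4i1* (157). The ranges of *Cox8a*, *Cox6a1*, *Atp5a1*, *Cox6b1* and *Cox4i1* all overlap one another, so their order is not separated.

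The genes tested with the lowest level per kilobase were *Ndufa4l2* at 0.412 CPM per kb, *Ndufb2* at 2.23, *Cox7a1* at 3.65 and *Atp5s* at 3.73 CPM per kb in the AMPK table. *Ndufb2* encodes a small complex I subunit whose level per kilobase, which depends on its merged exon length, was far below the complex I median. Not divided by length, its mean level in WT d0 was 11.1 CPM, above that of *Ndufaf3* (6.50 CPM). It shares 145 exon bases with *Gm42420* on the same strand and 146 with *Braf* on the opposite strand. Whether reads shared with other copies were dropped for such genes is not given in the sources used here. Of the 93 genes, 89 passed the filter on low counts in each table. The other 4 were *Cox4i2*, *Cox6b2*, *Cox7b2* and *Cox8c*, alternative isoforms of complex IV known from lung or testis. *Cox8c* had 0 counts in all 16 libraries.

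In each library complex III or complex V had the highest median level per kilobase, and complex I had the lowest except in the second library of TET2-WT clone 1, where complex II did. For complex I, the median over its genes was 33.8 ± 1.89 CPM per kb in WT d0, 37.7 ± 0.872 in AMPK-KO d0, 37.1 ± 4.34 in WT d8 and 39.5 ± 6.87 in AMPK-KO d8 (mean ± SD of 2 libraries). For complex V it was 70.8 ± 17.9, 76.3 ± 1.15, 54.4 ± 8.18 and 67.7 ± 14.3 CPM per kb in the same order. The 2 libraries of a group often lay as far apart as the groups themselves. In the AMPK table, replicate 1 had a smaller share of its counts in these genes than replicate 2 in each of the 4 groups. Its share of mitochondrially encoded reads was larger in each group as well, 1.36% against 0.568% in WT d0 and 1.16% against 0.666% in AMPK-KO d0. Between same-numbered libraries, the share in the oxidative phosphorylation genes was higher in AMPK-KO than in WT on both days. It was lower at d8 than at d0 in both genotypes. A fit with the replicate number as a block is given below where it changed a call.

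**Figure D1:**
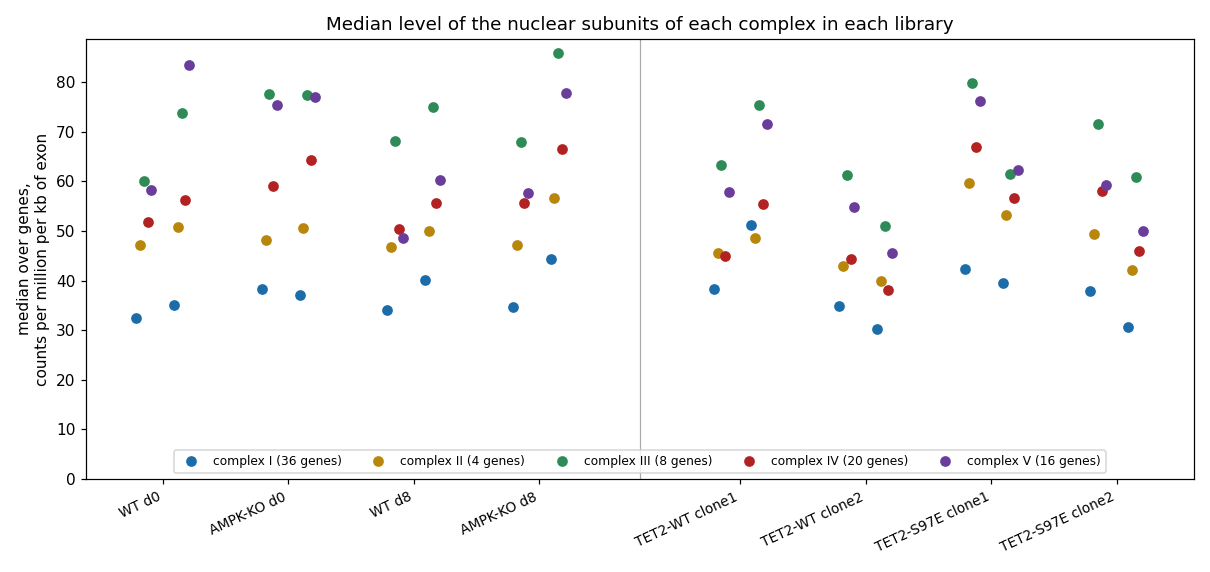
Median level of the nuclear subunits of each complex (CPM per kb of exon, vertical axis) in each of the 16 libraries (horizontal axis, 2 points per group or clone and complex), with the AMPK and TET2 tables normalized separately on either side of the line. For complex I the group means in the AMPK table run from 33.8 to 39.5, and for complex V from 54.4 to 76.3, with the 2 libraries of a group often as far apart as the groups.

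Across the 8 libraries of the AMPK table, the highest level (CPM + 0.1) was under 2 times the lowest for 81 of the 89 genes tested (91%), against 37.9% of all 14329 genes tested. The median ratio was 1.60 for these genes and 2.39 for all. In the TET2 table it was under 2 times for 70 of 89 (78.7%) against 53.6% of all 13433 genes, with medians of 1.71 and 1.92. The median of the mean levels not divided by length was 71.9 CPM for these genes and 26.0 CPM for all genes tested in the AMPK table, and the part of this difference in level in the narrower ranges was not tested. *Sdha*, the flavoprotein of complex II, spanned 1.21 times in the AMPK table, *Cox8a* 1.26 and *Cox6a1* 1.35 times. *Ndufs1*, a core subunit of complex I with iron-sulfur clusters, spanned 1.46 times and *Atp5b* 1.87 times. The ratio exceeded 4 for 4 genes in each table, and they were the same genes, all of complex IV: *Cox8b* (186 times in the AMPK table and 29.7 times in the TET2 table), *Cox6a2* (61.4 and 21.7), *Cox7a1* (5.80 and 6.27) and *Ndufa4l2* (4.31 and 11.9). *Cox8b* had 0 counts in 2 libraries of the AMPK table, so the added 0.1 sets its ratio there, and *Ndufa4l2* had as few as 2 counts in a library of either table.

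**Figure D2:**
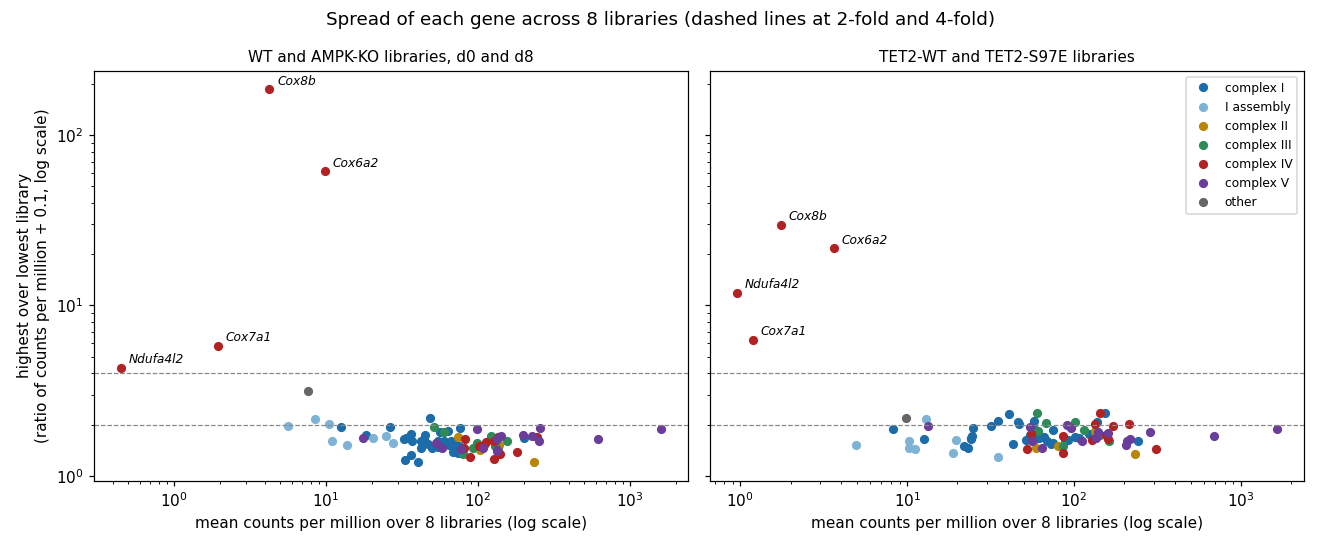
Ratio of the highest to the lowest of 8 libraries (CPM + 0.1, vertical axis, log scale) against the mean level (CPM, horizontal axis, log scale) for the 89 genes tested in each table. Only *Cox8b*, *Cox6a2*, *Cox7a1* and *Ndufa4l2* lie above the upper dashed line at 4 times, and 81 genes in the AMPK table and 70 in the TET2 table lie below the lower line at 2 times.

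Loss of AMPK in myoblasts was the first comparison. At d0, none of the 89 genes passed an adjusted p under 0.05 in AMPK-KO against WT (edgeR quasi-likelihood test, Benjamini-Hochberg over all genes), where 0.698% of all genes tested were called higher and 2.83% lower. At an unadjusted p under 0.05, 12 were higher (13.5%) and 0 lower, against 8.03% and 12.9% of all genes. DESeq2 called 0 (of all genes, 9.21%), with 9 at an unadjusted p under 0.05 (10.1%, against 19.7% of all genes). The median log2 fold change of the 89 genes was 0.18, with 65 above 0, against -0.0010 and 49.7% above 0 over all genes tested. By complex, the median log2 fold change was 0.15 for complex I, 0.26 for the assembly factors, 0.014 for complex II, 0.12 for complex III, 0.17 for complex IV and 0.14 for complex V. The assembly factors, which help build complex I and leave it, had 7 of 8 above 0.

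The complex I accessory subunit *Ndufa12* stood at 52.5 and 70.8 CPM in WT d0 and at 100.3 and 99.8 CPM in AMPK-KO d0, without overlap, a log2 fold change of 0.70 ± 0.22 (SE, edgeR adjusted p = 0.139). *Uqcr10*, a small complex III subunit, stood at 35.8 and 46.5 CPM in WT d0 and at 63.9 and 61.8 CPM in AMPK-KO d0 (log2 fold change 0.61 ± 0.20 SE, edgeR adjusted p = 0.152). Both genes were higher in each knockout library than in each WT library and neither was called. With 2 libraries against 2, the smallest two-sided exact permutation p, that of groups without overlap, is 0.33. The share of all genes without overlap is not given here for any comparison, so a lack of overlap is a description only. The lowest log2 fold changes, apart from *Cox8b*, were those of the complex I subunits *Ndufb7* (-0.44, edgeR adjusted p = 0.434) and *Ndufb8* (-0.41, edgeR adjusted p = 0.35). *Ndufb7* had the opposite sign, at 0.047, without WT d0 replicate 1.

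*Cox6a2*, the muscle isoform of complex IV subunit 6A (chr7:128205435-128206387, minus strand, GRCm38), had 7 and 8 counts in WT d0 and 146 and 14 counts in AMPK-KO d0. The level was 0.338 and 0.434 CPM in WT and 7.64 and 0.655 CPM in AMPK-KO. The knockout libraries were both higher, but replicate 1 alone set the size: the log2 fold change was 3.41 ± 1.27 (SE, edgeR adjusted p = 0.192) and 0.75 without that library. Its summed myotube genes, 23.7 CPM, were below those of both WT d0 libraries and above the 15.5 CPM of AMPK-KO d0 replicate 2. The part of these genes in the *Cox6a2* value was not tested. *Cox8b* had 6 and 0 counts in WT d0 and 2 and 0 in AMPK-KO d0, at or near the floor of 3 counts per library, so its fitted fold depends on the prior count and is not described. *Ndufa4l2* had 4 and 2 counts in WT d0 and 10 and 15 in AMPK-KO d0. Its level was 0.193 and 0.108 CPM in WT and 0.523 and 0.701 CPM in AMPK-KO, without overlap and without a call (log2 fold change 1.97 ± 0.94 SE, edgeR adjusted p = 0.288). It shares 32 exon bases with *Shmt2* on the opposite strand, which was also higher in AMPK-KO d0, with 13507 and 9033 counts against 3090 and 5805 in WT d0. Whether the counting used strand is not given in the sources used here, and the part of *Shmt2* reads in these counts was not tested.

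At d8 again, none of the 89 genes was called in AMPK-KO against WT (edgeR), where 1.36% of all genes tested were called higher and 3.98% lower. At an unadjusted p under 0.05, 4 were higher (4.49%) and 0 lower, against 9.85% and 12.9% of all genes. DESeq2 called 0 (of all genes, 10.6%), with 3 at an unadjusted p under 0.05 (3.37%, against 20.9% of all genes). The median log2 fold change was 0.15, with 64 above 0, against 0.039 over all genes tested, and it was -0.057 without AMPK-KO d8 replicate 2. The medians were 0.27 for complex IV and 0.25 for complex V, each with 14 of 16 tested genes above 0, and 0.12 for complex I and 0.031 for the assembly factors. *Cox4i1*, the ubiquitous isoform of the largest nuclear subunit of complex IV, stood at 187.5 and 217.9 CPM in WT d8 and at 277.6 and 315.4 CPM in AMPK-KO d8. The groups did not overlap, and the log2 fold change of 0.55 ± 0.17 (SE) was not called (edgeR adjusted p = 0.113). The lowest log2 fold changes were -0.36 for *Ndufb7*, -0.32 for the complex I subunit *Ndufs4* and -0.27 for the assembly factor *Ndufaf3*.

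Among the muscle isoforms at d8, *Cox8b* stood at 1.76 and 5.02 CPM in WT and at 8.40 and 18.5 CPM in AMPK-KO, without overlap (log2 fold change 1.98 ± 0.87 SE, edgeR adjusted p = 0.232). *Cox7a1* stood at 1.49 and 1.97 CPM in WT and at 2.45 and 4.96 CPM in AMPK-KO (1.09 ± 0.53 SE on the log2 scale, edgeR adjusted p = 0.275). *Cox6a2* stood at 10.0 and 26.8 CPM in WT and at 7.30 and 25.8 CPM in AMPK-KO. The first 2 isoforms were higher in both knockout libraries but were not called, and the *Cox6a2* ranges overlapped. In both genotypes replicate 2 had the higher level of each isoform and the higher summed level of myotube genes.

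Differentiation was tested within each genotype, and these comparisons share the d0 and d8 libraries with the knockout comparisons. In WT, 2 of the 89 genes rose from d0 to d8 and 0 fell (edgeR), against 5.78% and 6.58% of all genes tested. At an unadjusted p under 0.05, 6 were higher (6.74%) and 2 lower (2.25%), against 15.1% and 16% of all genes. DESeq2 called 2 as well, with 18.1% of all genes. The median log2 fold change was 0.026 (47 of 89 above 0), against 0.013 over all genes. *Cox6a2* rose by a log2 fold change of 5.56 ± 1.32 (SE, edgeR adjusted p = 0.0386), from 0.338 and 0.434 CPM to 10.0 and 26.8 CPM. *Cox8b* rose (edgeR adjusted p = 0.0461) from 6 and 0 counts to 32 and 107 counts, or from 0.289 and 0 CPM to 1.76 and 5.02 CPM. The ratio of its summed counts, per effective library size, was 23.0 (95% exact binomial interval 10.3 to 63.7, which covers counting error only). For both genes each d8 library lay above each d0 library. Both calls rest on few libraries. Without any 1 of the 4 WT libraries *Cox6a2* was not called (edgeR adjusted p of 0.0851 to 0.19). *Cox8b* was called without WT d0 replicate 1 and not without any other (edgeR adjusted p of 0.0894 to 0.223).

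The ubiquitous partners were not called. *Cox6a1* stood at 169.1 and 142.5 CPM in WT d0 and at 129.4 and 127.6 CPM in WT d8 (log2 fold change -0.28, edgeR adjusted p = 0.241), and *Cox8a* at 121.2 and 121.5 CPM and at 134.1 and 117.8 CPM (0.05, edgeR adjusted p = 0.846). Per kilobase, each partner was still the more abundant form of its pair in both d8 libraries. *Ndufa4l2* had 4 and 2 counts in WT d0 and 2 and 17 in WT d8, with overlap and without a call (1.57 ± 0.95 SE, log2, edgeR adjusted p = 0.308, and -0.47 without WT d8 replicate 2). *Cox7a1* differed by 0.74 on the log2 scale in WT (edgeR adjusted p = 0.405), from 0.772 and 1.3 CPM to 1.49 and 1.97 CPM, without overlap and without a call.

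Complex V had the lowest median in WT differentiation, -0.24 on the log2 scale, with 4 of 16 genes above 0, and none was called. *Atp5b* stood at 1364 and 2033 CPM in WT d0 and at 1087 and 1187 CPM in WT d8 (log2 fold change -0.58 ± 0.25 SE, edgeR adjusted p = 0.166). *Atp5a1* stood at 600.2 and 787.5 CPM and at 531.8 and 477.7 CPM (-0.46, edgeR adjusted p = 0.154). Both were lower in each d8 library, and the difference was set largely by WT d0 replicate 2: without it, *Atp5b* stood at -0.25. The median of complex I was 0.11 with 25 of 36 above 0, that of complex II -0.19, that of complex III -0.030 and that of complex IV -0.029. Among the assembly factors *Ndufaf5* (-0.66, edgeR adjusted p = 0.141) and *Ndufaf6* (-0.53, edgeR adjusted p = 0.232) had the lowest values, and *Ndufaf3* (0.74 on the log2 scale) the highest.

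In AMPK-KO, 1 gene rose from d0 to d8 and 0 fell (edgeR), against 4.81% and 4.95% of all genes tested. At an unadjusted p under 0.05, 6 were higher (6.74%) and 2 lower (2.25%), against 14.7% and 13.7% of all genes. *Cox8b* went from 2 and 0 counts to 206 and 380 counts (edgeR adjusted p = 0.0227). With d0 set to the floor of 3 counts per library, its mean level at d8 was at least 90.4 times that at d0. The ratio of its summed counts, per effective library size, was 263 (95% exact binomial interval 72.5 to 2177, counting error only). It was not called without AMPK-KO d0 replicate 1 (edgeR adjusted p = 0.126), AMPK-KO d0 replicate 2 (0.087) or AMPK-KO d8 replicate 2 (0.0502). *Cox6a2*, at 7.64 and 0.655 CPM in d0 and 7.30 and 25.8 CPM in d8, overlapped and was not called (log2 fold change 2.00 ± 1.06 SE, edgeR adjusted p = 0.261). Without AMPK-KO d0 replicate 1 its log2 fold change was 4.63. *Cox7a1* stood at 0.942 and 1.73 CPM in d0 and at 2.45 and 4.96 CPM in d8 (1.46 ± 0.54 SE, log2, edgeR adjusted p = 0.132). With the replicate number as a block it was called, at 1.45 (edgeR adjusted p = 0.0494), so that 2 genes rose in that fit. The share of all genes called in that fit is not given here. DESeq2 called 2 genes higher, *Cox8b* and *Atp5s*, with 17.2% of all genes. *Atp5s* stood at 5.60 and 5.94 CPM in d0 and at 8.97 and 14.6 CPM in d8 (1.03 ± 0.32 SE, log2, edgeR adjusted p = 0.089), above d0 in both d8 libraries. In WT it stood at 4.73 and 4.55 CPM in d0 and at 6.89 and 9.52 CPM in d8, likewise without overlap (0.82 ± 0.32 SE, log2, edgeR adjusted p = 0.136).

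Over all 89 genes the median change in AMPK-KO was -0.052 on the log2 scale (38 above 0), against 0.021 over all genes tested. It was -0.22 for the assembly factors (2 of 8 above 0), -0.090 for complex V, -0.078 for complex III, -0.043 for complex IV, -0.0056 for complex II and 0.0082 for complex I. *Ndufaf5* (-0.50), *Ndufa5* (-0.46) and *Ndufaf6* (-0.46) had the lowest log2 fold changes. The core subunits *Ndufs1*, *Ndufv1*, *Sdha*, *Sdhb*, *Uqcrc1*, *Uqcrfs1*, *Cox4i1*, *Cox5a*, *Atp5a1* and *Atp5b* stayed within 0.50 on this scale in both genotypes apart from *Atp5b* in WT. The changes of *Ndufs1* were 0.12 in WT and 0.11 in AMPK-KO, and those of *Sdha* 0.05 and 0.07, on the log2 scale.

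Whether the change from d0 to d8 differed between the genotypes was tested with the interaction term. edgeR called 0 of 14329 genes and 0 of the 89, with 0 of the 89 higher and 1 lower at an unadjusted p under 0.05, against 2.96% and 2.13% of all genes (*Ndufa5*, difference of log2 fold changes -0.63 ± 0.25 SE, edgeR adjusted p = 0.969). DESeq2 called 0.375% of all genes and 0 of the 89, with 2 at an unadjusted p under 0.05 (2.25%, against 5.01% of all genes). The largest differences were those of the low-count isoforms, -3.56 ± 1.62 (SE) for *Cox6a2*, 3.46 ± 1.90 for *Cox8b* and -1.62 for *Ndufa4l2* (edgeR adjusted p = 1 for each). The *Cox8b* value rests on 6, 0, 2 and 0 counts at d0 and depends on the prior count. *Cox7a1* (0.72) and *Atp5f1*, a peripheral stalk subunit of complex V (0.31), came next among the positive differences (edgeR adjusted p = 1 for both). The *Cox6a2* difference was -0.93 without AMPK-KO d0 replicate 1, and that of *Cox8b* had the opposite sign, -1.20, without WT d0 replicate 1. Without the filter on low counts *Cox6a2* was called in the interaction (-3.59, edgeR adjusted p = 1.96e-07), and in none of the other alternatives, where its adjusted p ran from 0.725 to 1 (edgeR or DESeq2). The change of *Cox8b* was not shown to differ between the genotypes in any fit. That of *Cox6a2* was called only in the fit without the filter on low counts.

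**Figure D3:**
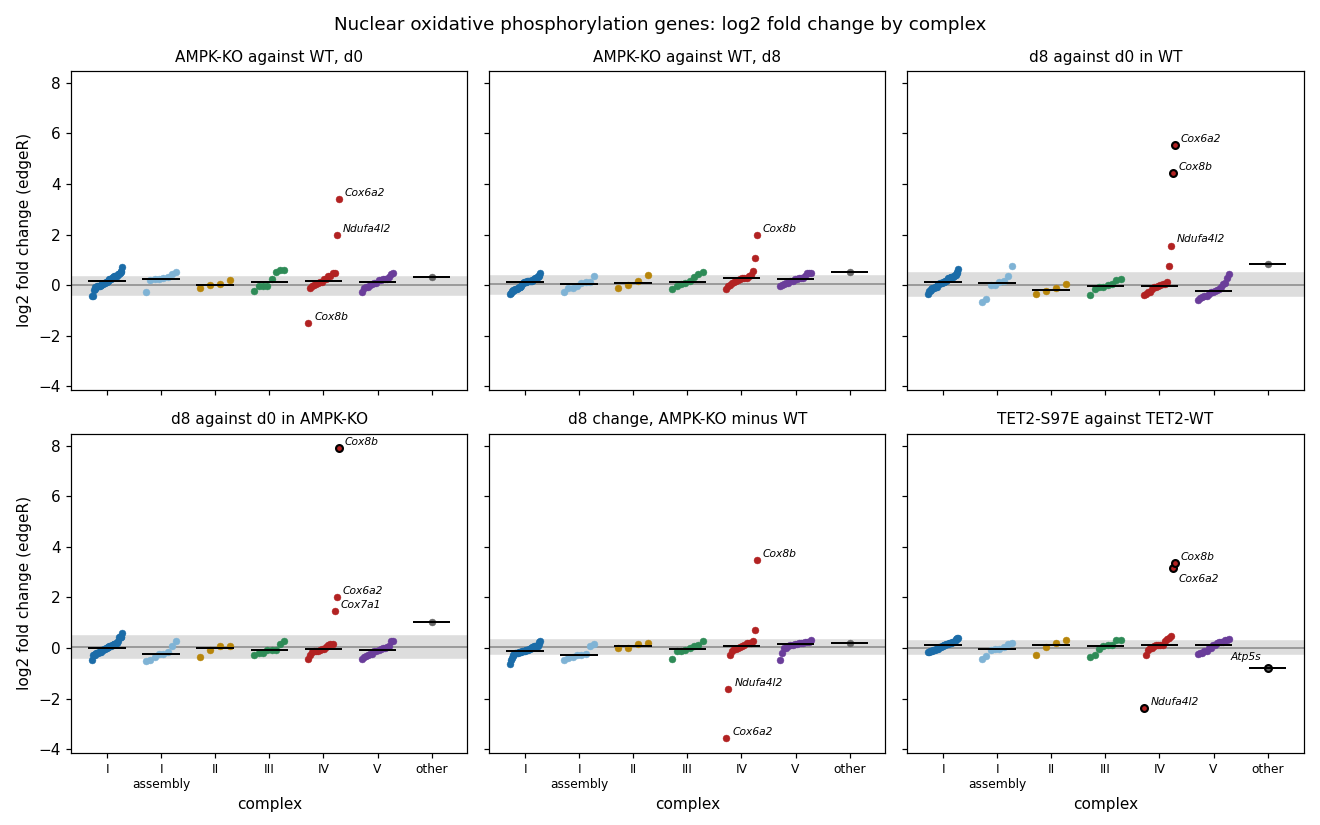
Log2 fold change from edgeR (vertical axis) of each tested gene by complex (horizontal axis) in the 6 comparisons; short black lines are medians, the grey band is the interquartile range of all genes tested, and points with a black edge passed an adjusted p under 0.05. The fitted values of *Cox8b* in AMPK-KO against WT at d0, and from d0 in AMPK-KO, rest on 2 or fewer counts per library at AMPK-KO d0 and depend on the prior count. Points beyond 1 on either side are *Cox6a2*, *Cox7a1*, *Cox8b*, *Ndufa4l2* and, in AMPK-KO differentiation, *Atp5s*.

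The TET2 genotypes, all in cells without AMPK, gave 2 genes higher and 2 lower in TET2-S97E of 89 tested (edgeR), against 3.71% and 3.28% of all genes tested. At an unadjusted p under 0.05, 5 were higher (5.62%) and 4 lower (4.49%), against 12.3% and 11.2% of all genes. On counts summed per clone 0 of 15126 genes were called. There 5 of 90 oxidative phosphorylation genes were at an unadjusted p under 0.05 (5.56%), against 10.4% of all genes. With limma-voom and clone as a random effect, 0 of the 89 genes and 1.24% of all genes were called, with 4 of the 89 at an unadjusted p under 0.05 (4.49%, against 15.9% of all genes). The median log2 fold change of the 89 genes was 0.10 (56 above 0), against 0.011 over all genes. Medians by complex were 0.10 for complex I, -0.040 for the assembly factors, 0.11 for complex II, 0.088 for complex III, 0.13 for complex IV and 0.11 for complex V. The sign of the overall median changed to -0.11 without TET2-WT clone 2, and it was 0.30 without TET2-WT clone 1. Of the 4 calls, none held without TET2-WT clone 1 replicate 1 or TET2-WT clone 2 replicate 1, and none without both libraries of TET2-S97E clone 1.

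*Cox6a2* had 17, 27, 10 and 27 counts in the TET2-WT libraries and 238, 239, 104 and 40 in the TET2-S97E libraries (clone 1 first). The level was 0.725 ± 0.208 CPM in TET2-WT and 6.58 ± 4.49 CPM in TET2-S97E (SD, n = 4 libraries of 2 clones). It was 12 and 7.78 CPM in TET2-S97E clone 1 and 5.25 and 1.31 CPM in clone 2, each above the highest TET2-WT library at 0.962 CPM. The log2 fold change was 3.17 ± 0.60 (SE, edgeR adjusted p = 0.0186). It was 3.04 on clone sums (edgeR adjusted p = 0.305) and 2.65 with clone as a random effect (limma-voom adjusted p = 0.228). Of 22 alternatives, 8 lost the call. *Cox6a2* shares 70 exon bases with *Itgad* on the opposite strand, which had at most 5 counts in any library.

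*Cox8b* stood at 0.0904, 0.132, 0.137 and 0.855 CPM in TET2-WT and at 5.55, 4.10, 2.52 and 0.621 CPM in TET2-S97E. The groups overlapped, since the second library of TET2-WT clone 2 lay above the second of TET2-S97E clone 2. The log2 fold change was 3.35 ± 0.84 (SE, edgeR adjusted p = 0.0444). Over 21 alternatives it ran from 2.33 to 4.74, and 11 of them lost the call. It was 3.19 on clone sums (edgeR adjusted p = 0.373) and 3.33 with clone as a random effect (limma-voom adjusted p = 0.208), and with the replicate number as a block the call was lost (3.44, edgeR adjusted p = 0.0682). That TET2-WT library, with 313 CPM, also had the highest summed myotube genes of its genotype, and that TET2-S97E library, with 419 CPM, the lowest of its own. The part of these genes in the results for *Cox6a2* and *Cox8b* was not tested.

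*Cox7a1* did not separate the genotypes. It stood at 2.08 and 1.71 CPM in TET2-WT clone 1, at 0.641 and 0.748 CPM in TET2-WT clone 2, at 2.37 and 1.14 CPM in TET2-S97E clone 1 and at 0.505 and 0.294 CPM in TET2-S97E clone 2 (log2 fold change -0.28 ± 0.65 SE, edgeR adjusted p = 0.844). Within each genotype both libraries of clone 1 lay above both of clone 2. The ubiquitous partners *Cox6a1*, *Cox7a2* and *Cox8a* had log2 fold changes of 0.13, 0.28 and 0.01 (edgeR adjusted p of 0.761, 0.337 and 0.982).

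The lower calls were *Ndufa4l2* and *Atp5s*. *Ndufa4l2*, a paralog of *Ndufa4* known as a target of hypoxia-inducible factor (chr10:127514967-127517154, plus strand, GRCm38), had 23, 60, 50 and 41 counts in TET2-WT and 2, 5, 15 and 7 counts in TET2-S97E. The level was 1.59 ± 0.519 CPM in TET2-WT and 0.312 ± 0.301 CPM in TET2-S97E (SD, n = 4 libraries of 2 clones), without overlap. The log2 fold change was -2.37 ± 0.58 (SE, edgeR adjusted p = 0.0408), -2.5 on clone sums (edgeR adjusted p = 0.347) and -2.65 with clone as a random effect (limma-voom adjusted p = 0.0781). Of 21 alternatives, 12 lost the call. *Shmt2*, on the opposite strand, had 2804, 5791, 2939 and 2534 counts in TET2-WT and 2151, 3627, 2382 and 2870 in TET2-S97E, with overlap. *Ndufa4* itself was not called, with a log2 fold change of 0.40 (edgeR adjusted p = 0.192).

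*Atp5s* (chr12:69724950-69744660, plus strand, GRCm38) stood at 12.5 ± 1.56 CPM in TET2-WT and at 7.28 ± 0.630 CPM in TET2-S97E (SD, n = 4 libraries of 2 clones). The libraries ran from 10.8 to 14.6 CPM and from 6.64 to 7.93 CPM, without overlap. The log2 fold change was -0.78 ± 0.17 (SE, edgeR adjusted p = 0.026), -0.81 on clone sums (edgeR adjusted p = 0.421) and -0.77 with clone as a random effect (limma-voom adjusted p = 0.0968). Of 22 alternatives, 9 lost its call. In the AMPK table its log2 fold changes from d0 to d8, given above, were positive.

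*Cox7b2*, the testis-type paralog of *Cox7b*, had too few counts for the edgeR test, with 3, 4, 0 and 1 counts in TET2-WT and 45, 62, 6 and 9 counts in TET2-S97E. The groups did not overlap. DESeq2, which tested it, gave a log2 fold change of 4.12 (DESeq2 adjusted p = 4.68e-04), where it called 11.1% of all genes and, of 92 of the oxidative phosphorylation genes, 3 higher and 2 lower. On clone sums its edgeR adjusted p was 0.385. Most of its counts came from TET2-S97E clone 1. *Cox5b*, a nuclear subunit of complex IV, stood at 126.8, 151.5, 103.4 and 99.4 CPM in TET2-WT and at 231.9, 191.3, 134.5 and 105.2 CPM in TET2-S97E, with overlap and without a call (log2 fold change 0.46, edgeR adjusted p = 0.303). Without TET2-S97E clone 1 it was -0.019. Over 22 alternatives it ran from -0.019 to 0.81, and 1 of them gained a call. The assembly factor *Ndufaf8* was among the 3 lowest values (log2 fold change -0.42, edgeR adjusted p = 0.339).

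**Figure D4:**
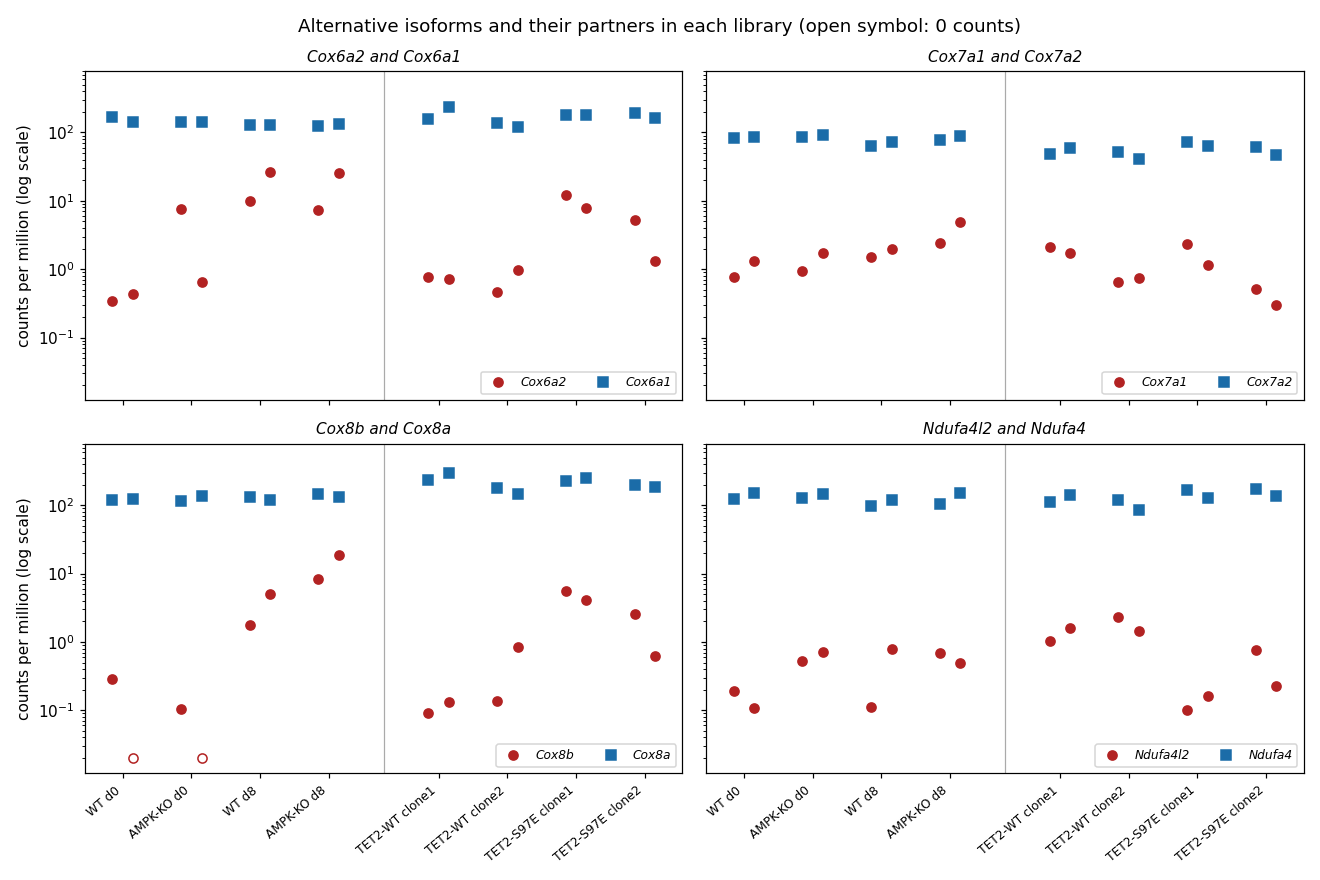
Level in CPM (vertical axis, log scale) of *Cox6a2*, *Cox7a1*, *Cox8b* and *Ndufa4l2* (circles) and of their partners (squares) in each of the 16 libraries (horizontal axis), with the AMPK and TET2 tables on either side of the line and open circles for 0 counts. *Cox6a2* stands at 10.0 and 26.8 in WT d8 against 0.338 and 0.434 in WT d0, while *Cox6a1* stays between 120.4 and 235.7 in all libraries.

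Set against its partner per kilobase of exon, each muscle isoform remained the minor form. *Cox6a2* made up 0.206% and 0.313% of the *Cox6a2* and *Cox6a1* sum in WT d0, 5.26% and 0.470% in AMPK-KO d0, 7.41% and 17.8% in WT d8, and 5.67% and 16.8% in AMPK-KO d8. *Cox8b* made up 2.21% and 6.83% of its pair in WT d8 and 9% and 19.4% in AMPK-KO d8. *Cox7a1* made up 3.95% and 4.52% of its pair in WT d8 and 5.26% and 8.94% in AMPK-KO d8. In every d8 group replicate 2 had the larger share. In the TET2 table the *Cox6a2* share was 0.311% to 0.818% in TET2-WT and 6.40%, 4.25%, 2.75% and 0.830% in TET2-S97E. *Cox4i2* made up at most 0.165% of its pair with *Cox4i1* in any library. The 3 genes of the ATP synthase c subunit, *Atp5g1*, *Atp5g2* and *Atp5g3*, which encode the same mature protein, were not called in any comparison.

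The genes around the complexes were described from fixed lists, by the same fits. As background, edgeR called 3.52% of all genes tested in AMPK-KO against WT at d0, 5.35% at d8, 12.4% in WT differentiation, 9.76% in AMPK-KO differentiation and 6.98% in TET2-S97E, counting both directions, and 0 in the interaction. Counts of the mitochondrially encoded subunits were very uneven. In WT d0 replicate 1, *mt-Co1* had 93905 counts, *mt-Co3* 89, *mt-Co2* 70 and *mt-Nd3* 9. *mt-Atp6* had 111 and 58 counts in WT d0 and 702 and 69 in AMPK-KO d0. Genes with few and with many counts weigh the same in the medians below, and the part of the low-count genes was not tested. Of the mitochondrially encoded subunits, 11 were tested in the AMPK table and 12 in the TET2 table. None was called in the AMPK comparisons, with 1 of 11 at an unadjusted p under 0.05 at d0 and 0 at d8 in AMPK-KO against WT (edgeR), against 20.9% and 22.8% of all genes. Their median log2 fold change was 0.054 at d0, with 7 of 11 above 0. At d8 it was -0.46, with 1 of 11 above 0, where that of the nuclear genes was 0.15 and 53% of all genes were above 0. Their summed level was 12427 and 8621 CPM in WT d8 and 8879 and 6287 CPM in AMPK-KO d8, with overlap. In TET2-S97E 2 rose, the complex I subunits *mt-Nd1* (0.73, edgeR adjusted p = 0.0221) and *mt-Nd2* (1.12, edgeR adjusted p = 0.00871), and 11 of 12 were above 0 with a median of 0.71, against 0.10 for the nuclear genes. Of the 12, 8 were at an unadjusted p under 0.05, against 23.5% of all genes. In that fit 3.71% of all genes were called higher, and on clone sums 0 of 15126 were called. The summed level was 9442 to 20331 CPM in TET2-WT, the highest in the second library of clone 2, and 19516 to 23543 CPM in TET2-S97E, so that these ranges overlap.

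Among 38 tested assembly factors whose symbols fall outside the rule, *Coa6*, which acts in copper delivery to complex IV, was higher in AMPK-KO at d8 (log2 fold change 1.05, edgeR adjusted p = 0.0374). *Cox14*, an assembly factor of complex IV, rose with differentiation in WT (0.86, edgeR adjusted p = 0.0289) and in AMPK-KO (0.76, edgeR adjusted p = 0.0445). No other call was made in this list, so that 1 of 38 (2.63%) was called higher in each of these 3 comparisons, against 1.36% of all genes at d8, 5.78% in WT differentiation and 4.81% in AMPK-KO differentiation. Of 19 genes of electron carriers and coenzyme Q synthesis, *Coq8a*, a regulator of that synthesis, rose in WT (5.81, edgeR adjusted p = 0.0143), in AMPK-KO (5.70, edgeR adjusted p = 0.0217) and in TET2-S97E (4.02, edgeR adjusted p = 0.0212). *Coq10a* rose in both differentiation comparisons, and *Pdss1*, which starts the coenzyme Q side chain, fell in both, by 1.73 in WT and by 1.53 in AMPK-KO on the log2 scale. *Gpd2*, the mitochondrial glycerol 3-phosphate dehydrogenase, fell by 2.04 in WT (edgeR adjusted p = 0.02), and *Cycs*, cytochrome c, was higher in TET2-S97E (0.65, edgeR adjusted p = 0.0463).

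None of 18 tricarboxylic acid cycle genes was called in any of the 6 comparisons (edgeR). In TET2-S97E, 17 of the 18 were above 0 with a median log2 fold change of 0.29, against 51.3% above 0 and a median of 0.011 over all genes tested. Of the 18, 9 (50%) were at an unadjusted p under 0.05, against 23.5% of all genes, and on clone sums 0 genes were called. Of 6 tested carriers of adenine nucleotides and phosphate, *Slc25a5*, the nucleotide carrier of growing cells, fell with differentiation by 1.04 in WT (edgeR adjusted p = 0.0238) and by 1.19 in AMPK-KO (edgeR adjusted p = 0.0227) on the log2 scale. Among regulators of mitochondrial biogenesis, 15 of which were tested in the AMPK table and 14 in the TET2 table, the nuclear receptor *Esrra* was lower in AMPK-KO at d0 (-1.20, edgeR adjusted p = 0.0331). *Ppargc1a*, the coactivator PGC-1alpha, was higher in TET2-S97E (3.68, edgeR adjusted p = 0.0176). Each TET2 call in these lists is lost on clone sums, where 0 genes were called.

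The cell state lists moved in the same comparisons. All 8 myotube genes rose with differentiation in WT and in AMPK-KO, and 7 of 8 were higher in TET2-S97E (edgeR), against 5.78%, 4.81% and 3.71% of all genes called higher. At d0 *Myog* was lower in AMPK-KO (-5.36, edgeR adjusted p = 0.0116). Of 5 genes of myoblast identity, *Myod1* (-3.29, edgeR adjusted p = 0.0147) and *Pax7* were lower in AMPK-KO at d0. *Pax7* had 167 and 169 counts in WT d0 and 0 and 1 in AMPK-KO d0 (edgeR adjusted p = 0.00863). It was also lower in AMPK-KO at d8. Both genes were higher in TET2-S97E, *Myod1* by 2.5 on the log2 scale and *Pax7* from 1, 6, 1 and 2 counts to 42, 51, 50 and 323 counts (edgeR adjusted p = 0.0077). *Myod1* rose in AMPK-KO from d0 to d8. The 4 cell cycle genes fell with differentiation in both genotypes. In AMPK-KO against WT at d8 all 4 were above 0 with a median log2 fold change of 0.79 and none was called (edgeR). Their summed level was 249.9 and 107 CPM in AMPK-KO d8 against 105 and 99.99 CPM in WT d8. Replicate 1 of AMPK-KO d8 thus set most of this difference. In the TET2 comparison 1 of the 4 genes, *Mki67*, was higher in TET2-S97E (1.70, edgeR adjusted p = 0.0112). On clone sums none of these TET2 differences was called, as 0 of 15126 genes were. The part of these differences in cell state in the values of *Cox6a2* and *Cox8b* was not tested.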

How the data were processed

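RNA-seq read counts per gene were deposited by the authors as 2 tables, 1 for the WT and AMPK-KO libraries and 1 for the TET2 libraries, as unnormalized counts. The submitters' processing notes name bcl2fastq 2.17, Trim Galore 0.4.5, STAR 2.5.3a, featureCounts 1.5.3 and mm10. Strand and multi-mapping settings are not given in the sources used here, and 29 of the 93 genes share exon bases with a gene on the opposite strand. Gene type, exon length and position came from GENCODE M21 on GRCm38, matched by identifier for 49326 of 49585 genes. Samples were grouped by their labels, and every sample column was used.

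Each table was normalized on its own (TMM) and tested with edgeR 4.0.16 in R 4.3.3 (filterByExpr, quasi-likelihood test, two-sided, Benjamini-Hochberg over all genes tested, threshold 0.05). One model covered the 4 groups of the AMPK table, with 4 residual degrees of freedom, and another the TET2 genotypes, with 6. Alternatives were DESeq2 1.42.0, limma 3.58.1 (voom, clone as a random effect), clone sums, other scalings and filters, a replicate block and leaving out each library or clone. The fits were tested on simulated data, and the outcome is not given or used here. Figures used matplotlib 3.10.9. The members and lists were chosen with earlier results of these data known. Genes named were those called, the 3 highest and 3 lowest per comparison, isoform pairs, core subunits, edited genes, genes not tested and called list genes; *Uqcr10* and the *Ndufaf3* change in WT were chosen after their values were seen.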

Additional observations from a re-analysis of the deposited data

How the results depend on the processing

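With 2 libraries per group or clone and 4 or 6 residual degrees of freedom, the smallest change that could be called was not determined, and low counts limit *Cox8b*, *Cox7a1*, *Ndufa4l2* and *Cox7b2*. Of 524 alternatives to the 36 results on single genes, 458 kept direction and side of the threshold, 51 lost the call, 7 gained one and 8 turned direction; the cause was not tested unless the alternative has fewer libraries or genes. Without the filter on low counts, 2 genes were called higher in AMPK-KO at d0 (*Cox6a2* and *Ndufa12*), 1 at d8 (*Cox8b*), 2 from d0 to d8 in AMPK-KO, and 1 was lower in the interaction (*Cox6a2*). With at least 10 counts in every library, 0 were called in either differentiation comparison, and 1 higher and 1 lower in TET2-S97E. DESeq2 called 2 in AMPK-KO differentiation, and a fit on the groups compared alone called 1 in WT differentiation. Clone sums and limma-voom (within-clone correlation 0.357) called 0 higher and 0 lower in TET2-S97E. Without TET2-WT clone 1 the calls were 0 and 0 with a median of 0.30. Without TET2-WT clone 2 they were 1 and 0 with a median of -0.11. Without TET2-S97E clone 1 they were 0 and 0, and without TET2-S97E clone 2, 6 were higher. Apart from DESeq2, clone sums and limma-voom, the share of all genes called is not given for the fits in this section. Their counts of calls are therefore not read against a background.

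Leaving out 1 library at a time leaves a group with 1 library, which is assumed to vary like the others. The median log2 fold change then ran from 0.087 to 0.26 for AMPK-KO against WT at d0, from -0.057 to 0.30 at d8, from -0.12 to 0.10 for differentiation in WT, from -0.22 to 0.11 in AMPK-KO, from -0.20 to 0.15 for the interaction, and from 0.0047 to 0.23 for TET2-S97E. The counts of higher calls ran from 0 to 1 in both differentiation comparisons and from 0 to 2 in TET2-S97E, and the lower calls there from 0 to 2. The direction turned for *Cox8b* at d0 (from -4.70 to 3.19) and in the interaction (from -1.20 to 6.66), fitted values on 6 or fewer counts per d0 library that depend on the prior count, and for *Ndufb7* at d0 (from -0.80 to 0.047) without WT d0 replicate 1, for *Atp5f1* in the interaction without WT d0 replicate 2 (-0.093) or AMPK-KO d8 replicate 2 (-0.021, range to 0.63), for *Ndufa4l2* in WT differentiation (from -0.47 to 2.32) and the interaction (from -2.36 to 0.42) without WT d8 replicate 2, and for *Cox5b* without TET2-S97E clone 1 (-0.019); none of these had been called. On counts instead of per length, the highest share was 5.27% for *Cox7a1* and 12.3% for *Cox8b*.

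The replicate numbers were not stated to mark a batch. Deviations of same-numbered libraries correlated at 0.119 to 0.324 over 6 pairs of groups in the AMPK table and at -0.036 to 0.513 in the TET2 table, where 4 of 6 pairs were over 0.1. With a replicate block, 2 genes were called higher in AMPK-KO differentiation (*Cox7a1* joined, log2 fold change 1.45, edgeR adjusted p = 0.0494). In TET2-S97E 1 was higher (*Cox8b*, edgeR adjusted p = 0.0682, was lost). The share of all genes called with the block is not given here.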
